A study of Homo sapiens with 16 samples.

Results

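The genes described here encode the core proteins of small nucleolar ribonucleoproteins (snoRNPs) and a pair of abundant nucleolar factors: FBL, NOP56, NOP58 and SNU13 of the box C/D particle, DKC1, NHP2, NOP10 and GAR1 of the box H/ACA particle, and NCL and NPM1. They were taken by gene symbol, and all 10 were found among the 60669 genes of each deposited table. RNA came from HMC3 cells, an established human cell line labelled as microglial, either wild type or labelled knockout (KO) of METTL3, the catalytic subunit of the enzyme that writes N6-methyladenosine (m6A) on RNA. Whether the knockout line is 1 clone is not given in the sources used here. Ribosomal RNA was depleted for 3 wild-type and 3 knockout-labelled libraries, made with a directional kit, and these have a value per library in TPM, a gene's share of a library's transcripts after division by gene length. A further 5 libraries per genotype were made from polyadenylated RNA by Smart-seq2 and are seen here only through the authors' deposited table of 1 comparison.

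Small nucleolar RNAs guide the chemical modification of ribosomal RNA in the nucleolus. Box C/D RNAs carry fibrillarin (FBL), which adds a methyl group to the ribose, together with NOP56, NOP58 and SNU13. Box H/ACA RNAs carry dyskerin (DKC1), which turns uridine into pseudouridine, together with NHP2, NOP10 and GAR1, and the same particle proteins bind the RNA of telomerase. Nucleolin (NCL) and nucleophosmin (NPM1) are multifunctional proteins of the nucleolus that act in ribosome assembly and as chaperones. In human genes most of these guide RNAs are cut out of introns, and some of the host genes encode snoRNP proteins themselves.

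A small nucleolar RNA from inside a gene of each particle is shown to make the classes visible. SNORD57 lies inside NOP56 (chr20:2656939-2657010, plus strand, GRCh38), and the capitals mark the C box core and the D box. SNORA56 lies inside DKC1 (chrX:154774998-154775126, plus strand, GRCh38), and the capitals mark the ACA at its 3′ end. Both sequences are those of GENCODE 29 transcripts.
SNORD57: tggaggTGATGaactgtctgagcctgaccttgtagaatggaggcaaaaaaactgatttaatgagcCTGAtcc
SNORA56: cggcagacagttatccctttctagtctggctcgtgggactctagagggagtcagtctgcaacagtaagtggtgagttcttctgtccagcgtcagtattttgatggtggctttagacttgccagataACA

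In the libraries labelled knockout, 7 of the 10 mRNAs rose, 1 fell and 2 did not pass the test. NOP10 rose most, NPM1 and NOP58 rose by about as much as each other, and FBL, the box C/D methyltransferase, fell. The test was limma on log2(TPM + 1) over 14789 genes, with a Benjamini-Hochberg adjusted p under 0.05 as the threshold. Of all genes tested, 35.3% passed, 22.9% higher and 12.4% lower in the knockout label. Values of the groups did not overlap for 10 of the 10 genes, against 62.7% of all genes tested. The median log2 change was 1.06 over the 10 genes and 0.41 over all genes tested.

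Facts of the whole series bear on these values. What 1 read was worth could be recovered from gene lengths, giving depths of 266157 to 1267171 reads per library. Knockout-labelled libraries 1 and 2 did not differ beyond sampling noise (chi-square of 1.02 per degree of freedom over 10120 genes, p = 0.065), so they were averaged and counted as 1 sample, leaving 3 wild-type and 2 knockout-labelled samples. Nothing in the labels says that replicates came from separate cultures, so p-values measure the spread between these samples, which may be technical. METTL3 itself had 31.2, 31.6 and 25.4 TPM in the wild type against 39.2, 39.96 and 42.7 TPM under the knockout label (log2 change 0.48, SE 0.19; limma adjusted p 0.106), so its mRNA level does not check that label. Of 10 microglial markers, 8, among them AIF1, CX3CR1, P2RY12 and TMEM119, were listed at 0 in all 6 libraries, and the 10 together came to at most 6.47 TPM in a library, CSF1R and TREM2 being the others. Of 6 mesenchymal markers none was at 0 throughout, though COL3A1 had a value only in wild-type library 1 (2.08 TPM). Together the 6 came to 10818 to 13273 TPM in the wild type and 3388 to 3554 TPM in the knockout label. COL1A1 made up most of the former sum (9612 to 11995 TPM, against 749 to 865 TPM). COL1A2 and PDGFRB also had lower values in every knockout-labelled library, while VIM and THY1 had higher ones. The mesenchymal sum moved with the groups, and its part in the results below was not tested. TPM is a share, and the median gene rose by 0.41 on this scale. With median ratio scaling the median of all genes was 0.11 and 48.6% of calls were higher, against 64.8% with TPM as deposited. The change of each of the 10 genes is therefore also given relative to the median gene. Changes of most other genes are given without this, and a rise of 0.41 is then that of the median gene.

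**Figure D1:**
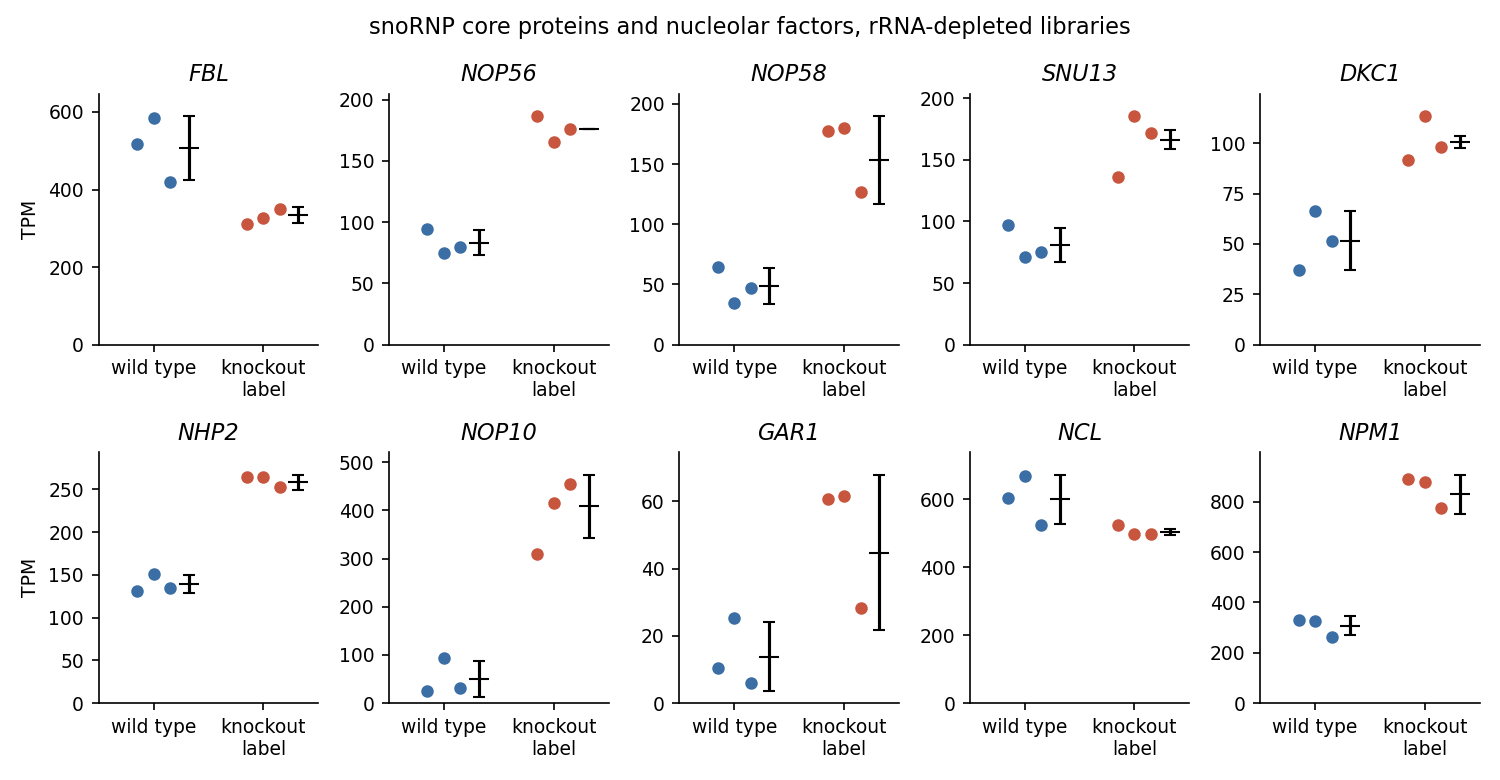
TPM (vertical axes, from 0) of each of the 10 genes in 3 wild-type and 3 knockout-labelled rRNA-depleted libraries (points, libraries 1 to 3 from left to right), with the mean and SD over 3 and 2 samples (bars). NPM1 sits between 774 and 889 TPM in the knockout label and between 263 and 331 TPM in the wild type, and FBL is the gene whose knockout-labelled points all lie clearly below the wild type.

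The order of the levels changed with the label. In the wild type, NCL (600.3 TPM) and FBL (506 TPM) stood first, and their ranges overlapped. NPM1 (307 TPM) and NHP2 (139 TPM) followed, each apart from its neighbours. NOP56 (83.0 TPM) and SNU13 (80.97 TPM) overlapped, as did DKC1 (51.6 TPM), NOP10 (50.5 TPM) and NOP58 (48.7 TPM), and GAR1 was last at 13.8 TPM. In the libraries labelled knockout NPM1 was first at 829 TPM, ahead of NCL at 505 TPM, NOP10 at 408 TPM and FBL at 334 TPM, with ranges over the 2 samples that did not overlap, although library 1 had less NOP10 (309 TPM) than FBL (312 TPM). NOP10 thus stood next after NCL in the knockout label and between DKC1 and NOP58 in the wild type. The 10 genes together made up 0.164% to 0.210% of the TPM of a wild-type library and 0.293% to 0.309% of that of a knockout-labelled library.

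Fibrillarin mRNA was the member of the box C/D group that fell. FBL (ENSG00000105202; chr19:39834458-39846414, minus strand, GRCh38) measured 516, 583 and 419.8 TPM in wild-type libraries 1 to 3, against 312, 328 and 349 TPM under the knockout label. Every knockout-labelled library was below every wild-type library. Mean TPM was 506 ± 82.2 (SD, n = 3) for the wild type and 334 ± 20.9 (SD, n = 2) for the knockout label, a ratio of 0.661. The log2 change was -0.59 (SE 0.16; limma adjusted p 0.0417), or -0.997 relative to the median of all genes. The call was lost without wild-type library 1 (limma adjusted p 0.0996), without wild-type library 2 (0.0671) and without knockout-labelled library 3 (0.186). It was also lost with the trend with GC content removed (log2 change -0.44, limma adjusted p 0.152), with a pseudocount of 0.1 (0.0521), with no filter on low values (0.0646), with quantile normalization (0.0625) and at an adjusted p under 0.01, so that 9 of 17 alternatives kept it. Median ratio scaling, one of the 9, gave -0.94 (limma adjusted p 0.0159).

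The 3 partners of fibrillarin rose. NOP56 (ENSG00000101361; chr20:2652145-2658393, plus strand, GRCh38), a scaffold that holds the guide RNA and fibrillarin together, measured 94.5, 74.8 and 79.9 TPM in wild-type libraries 1 to 3, against 186, 165 and 176 TPM under the knockout label. The libraries of the label lay close together and all well above the wild type. The ratio of means was 2.12 and the log2 change 1.08 (SE 0.14; limma adjusted p 0.00494), or 0.67 relative to the median gene. NOP58 (ENSG00000055044; chr2:202265716-202303666, plus strand, GRCh38), its paralogue in the same particle, measured 64.4, 34.5 and 47.2 TPM in wild-type libraries 1 to 3, against 178, 180.2 and 127 TPM under the knockout label. Library 3 was the lowest of the label and was still well above the highest wild-type library. The ratio of means was 3.14 and the log2 change 1.66 (SE 0.30; limma adjusted p 0.0129), or 1.25 relative to the median gene. SNU13 (ENSG00000100138; chr22:41673930-41690504, minus strand, GRCh38), which binds the kink-turn of the guide RNA and of U4 small nuclear RNA, measured 96.8, 70.7 and 75.4 TPM in wild-type libraries 1 to 3, against 136, 185 and 172 TPM under the knockout label. Its groups did not overlap either. The ratio of means was 2.05 and the log2 change 1.04 (SE 0.17; limma adjusted p 0.00917), or 0.63 relative to the median gene.

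Without knockout-labelled library 3, which leaves 1 sample with that label, NOP56 (limma adjusted p 0.0617), NOP58 (0.0948) and SNU13 (0.103) missed the threshold. The log2 change of NOP58 was then 1.90. Removing the GC trend took the log2 change of NOP58 to 0.79 (limma adjusted p 0.058), and median ratio scaling took that of SNU13 to 0.69, still past the threshold (limma adjusted p 0.0288). SNU13 overlaps C22orf46 on the opposite strand over 1566 bases. Whether the counting used strand is not given in the sources used here, so reads of overlapping genes may be mixed. C22orf46 stood at 12.3 to 24.2 TPM in the 6 libraries.

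The box H/ACA group rose in 3 of its 4 members, and the member that did not pass had the fewest reads. DKC1 (ENSG00000130826; chrX:154762742-154777689, plus strand, GRCh38), the pseudouridine synthase, measured 37.1, 66.5 and 51.3 TPM in wild-type libraries 1 to 3, against 91.7, 113 and 98.3 TPM under the knockout label. All 3 libraries of the label were above all 3 of the wild type. The ratio of means was 1.95 and the log2 change 0.99 (SE 0.26; limma adjusted p 0.0368), or 0.57 relative to the median gene. Its call was lost without wild-type library 3 (limma adjusted p 0.0793), without knockout-labelled library 3 (0.208), with no filter on low values (0.0526), at an adjusted p under 0.01, with median ratio scaling (log2 change 0.64, limma adjusted p 0.137) and with the GC trend removed (0.56, limma adjusted p 0.21). NHP2 (ENSG00000145912; chr5:178149460-178153967, minus strand, GRCh38), a small RNA-binding subunit, measured 131, 151 and 135 TPM in wild-type libraries 1 to 3, against 264, 265 and 252 TPM under the knockout label. Its libraries varied little within a label. The ratio of means was 1.86 and the log2 change 0.89 (SE 0.11; limma adjusted p 0.00441), or 0.48 relative to the median gene. NHP2 kept its call in all 17 alternatives. Median ratio scaling gave the smallest change, 0.54. It overlaps RMND5B on the opposite strand over 1106 bases, a gene at 13.4 to 17.8 TPM in the 6 libraries.

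NOP10 (ENSG00000182117; chr15:34341713-34343177, minus strand, GRCh38), the smallest subunit, which packs against the catalytic domain of dyskerin, showed the largest rise of the 10 genes. It measured 25.6, 93.4 and 32.4 TPM in wild-type libraries 1 to 3, against 309, 415 and 455 TPM under the knockout label. The highest wild-type library was library 2, and it was still below the lowest knockout-labelled library. Mean TPM was 50.5 ± 37.3 (SD, n = 3) for the wild type and 408 ± 65.5 (SD, n = 2) for the knockout label, a ratio of 8.09. The log2 change was 3.22 (SE 0.56; limma adjusted p 0.0114), or 2.80 relative to the median gene, and without knockout-labelled library 3 it was 3.05 (limma adjusted p 0.144). NOP10 has 554 bases of exon, so these values rest on 2, 5 and 3 reads in the wild type and 51, 84 and 39 reads in the knockout label. Pooled over libraries, the ratio of read rates was 8.61, with an exact 95% interval of 4.57 to 18.3 that covers counting error only. GAR1 (ENSG00000109534; chr4:109815510-109824740, plus strand, GRCh38), which helps release the modified RNA, had 10.4, 25.3 and 5.85 TPM in the wild type and 60.6, 61.6 and 28.4 TPM in the knockout label, from 3, 5 and 2 reads and 37, 46 and 9 reads. The groups did not overlap, but by little: wild-type library 2 and knockout-labelled library 3 were close. Its log2 change of 1.75 (SE 0.66), or 1.34 relative to the median gene, did not pass (limma adjusted p 0.0966). It passed without wild-type library 2 (log2 change 2.27, limma adjusted p 0.0337) and with 6 libraries as separate samples (1.93, limma adjusted p 0.0261). The pooled ratio of read rates was 4.55, with an exact 95% counting interval of 2.37 to 9.81.

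NCL and NPM1 parted. NPM1 (ENSG00000181163; chr5:171387116-171411137, plus strand, GRCh38) measured 331, 327 and 263 TPM in wild-type libraries 1 to 3, against 889, 879 and 774 TPM under the knockout label. The groups were far apart against the spread within them. Mean TPM was 307 ± 38.4 (SD, n = 3) for the wild type and 829 ± 77.3 (SD, n = 2) for the knockout label, a ratio of 2.70. The log2 change was 1.43 (SE 0.14; limma adjusted p 0.00276), or 1.02 relative to the median gene. It kept its call in all 17 alternatives, and was smallest with the GC trend removed (0.68, limma adjusted p 0.0291). NPM1 has 45 annotated pseudogenes in the table, near copies among which reads may be split. Together they held 4 to 28 reads per library, against 121 to 1228 reads for NPM1 itself.

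NCL (ENSG00000115053; chr2:231453531-231483641, minus strand, GRCh38) measured 604, 671 and 526 TPM in wild-type libraries 1 to 3, against 524, 499.6 and 499 TPM under the knockout label. The lowest wild-type library and the highest knockout-labelled library were nearly level. The log2 change was -0.24 (SE 0.13), or -0.65 relative to the median gene, and did not pass (limma adjusted p 0.202). It passed with median ratio scaling (-0.60, limma adjusted p 0.0308) and with the GC trend removed (-0.76, limma adjusted p 0.0255). NCL was the most deeply read of the 10 genes, with 449 to 1264 reads per library.

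A ratio of a pair of genes within a library is free of the scaling of that library. NOP56 had 0.183, 0.128 and 0.190 times the TPM of FBL in the wild type and 0.597, 0.505 and 0.504 times in the knockout label. NOP58 had 0.0592 to 0.125 times the TPM of FBL in the wild type and 0.364 to 0.570 times in the knockout label, and SNU13 had 0.121 to 0.188 and 0.437 to 0.565 times. In each of these pairs the labels did not overlap. By TPM of the rRNA-depleted libraries, FBL was thus in large excess over its partners in the wild type and in smaller excess in the knockout label. The poly(A) libraries gave another order by mean normalized count, which is pooled over genotypes and not divided by gene length. In the authors' deposited table this count was 196 for FBL, 821 for NOP56, 538 for NOP58 and 412 for SNU13. NPM1 had 0.488 to 0.548 times the TPM of NCL in the wild type and 1.55 to 1.76 times in the knockout label: NCL exceeded NPM1 in every wild-type library, and NPM1 exceeded NCL in every knockout-labelled one. In the H/ACA particle NHP2 kept a like ratio to DKC1, 2.27 to 3.54 in the wild type and 2.34 to 2.88 in the knockout label, with overlapping groups. NOP10 went from 0.632 to 1.40 times DKC1 to 3.36 to 4.62 times. The ratio of GAR1 to DKC1 overlapped between the labels, at 0.114 to 0.380 and 0.289 to 0.661.

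**Figure D2:**
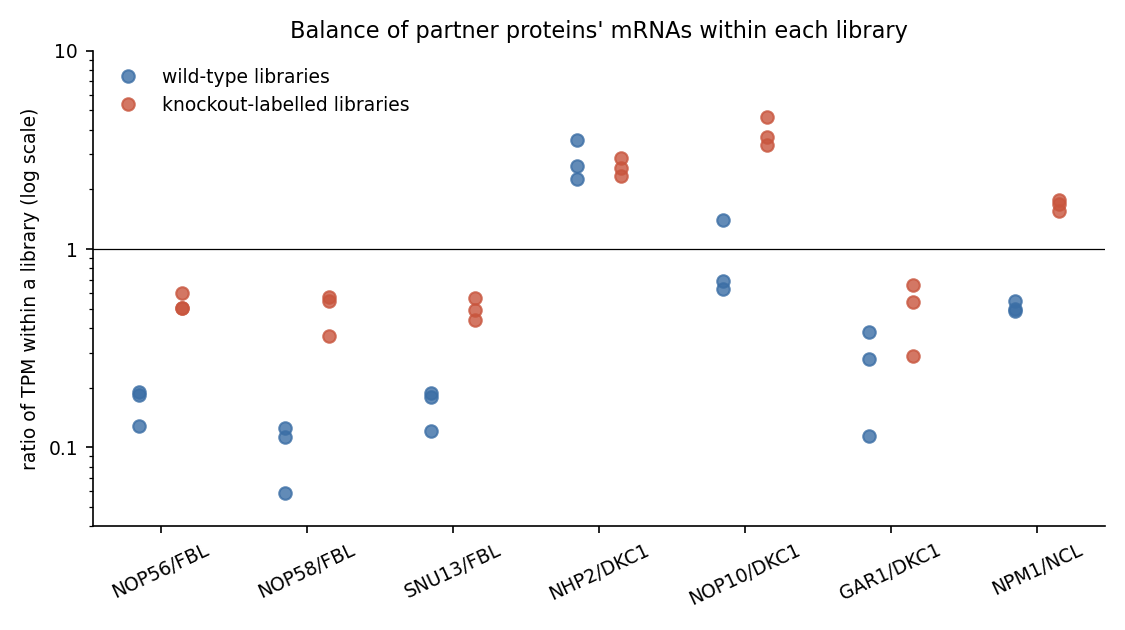
Ratio of the TPM of partner genes within each rRNA-depleted library (vertical axis, log scale), for wild-type (blue) and knockout-labelled (red) libraries, 3 points each. The labels do not overlap for the ratios to FBL, for NOP10/DKC1 and for NPM1/NCL, and they overlap for NHP2/DKC1 and GAR1/DKC1.

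The poly(A) libraries gave another pattern. The authors' deposited table does not state which group is the numerator. Positive values were read as higher under the knockout label, since its name is that of the knockout and 893 of the 1327 genes called in both library types then share a direction. If the wild type were the numerator, every direction from the authors' deposited table would be opposite. By the authors' deposited table, 4 of the 10 genes had an adjusted p under 0.05, 2 higher and 2 lower, where 19.9% of 14009 genes did, 9.55% higher and 10.3% lower. The median log2 fold change of the 10 was -0.05 in the authors' deposited table, against 0.02 over all genes with an adjusted p.

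NCL (log2 fold change 0.39, SE 0.09, adjusted p 0.000125) and NOP58 (0.38, SE 0.09, adjusted p 0.000225) were the genes that were higher in the authors' deposited table. NOP10 (-0.68, SE 0.14, adjusted p 2.16e-05) and NHP2 (-0.35, SE 0.12, adjusted p 0.0243) were the genes that were lower in the authors' deposited table. NOP58 therefore rose in both library types, while NOP10 and NHP2 rose in the rRNA-depleted libraries and were lower in the authors' deposited table. Of all 3128 genes present in both types that rose in the rRNA-depleted libraries, 379 (12.1%) were called lower and 648 higher in the authors' deposited table, and with the wild type as numerator these counts would change places. The other 6 genes did not pass in the authors' deposited table: FBL (0.02, SE 0.11), NOP56 (0.01, SE 0.07), NPM1 (0.07, SE 0.08), DKC1 (-0.10, SE 0.08), SNU13 (-0.17, SE 0.09) and GAR1 (-0.19, SE 0.14). All 4 box H/ACA genes had a value below 0 in the authors' deposited table, and all 4 had a log2 change above 0 in the rRNA-depleted libraries. DKC1 passed in the latter only, and GAR1 passed in neither. Signs differed between the library types for 7 of the 10 genes and for 5311 of the 12498 genes present in both. The difference between the library types was not tested, since the authors' deposited table holds no value for a single library.

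**Figure D3:**
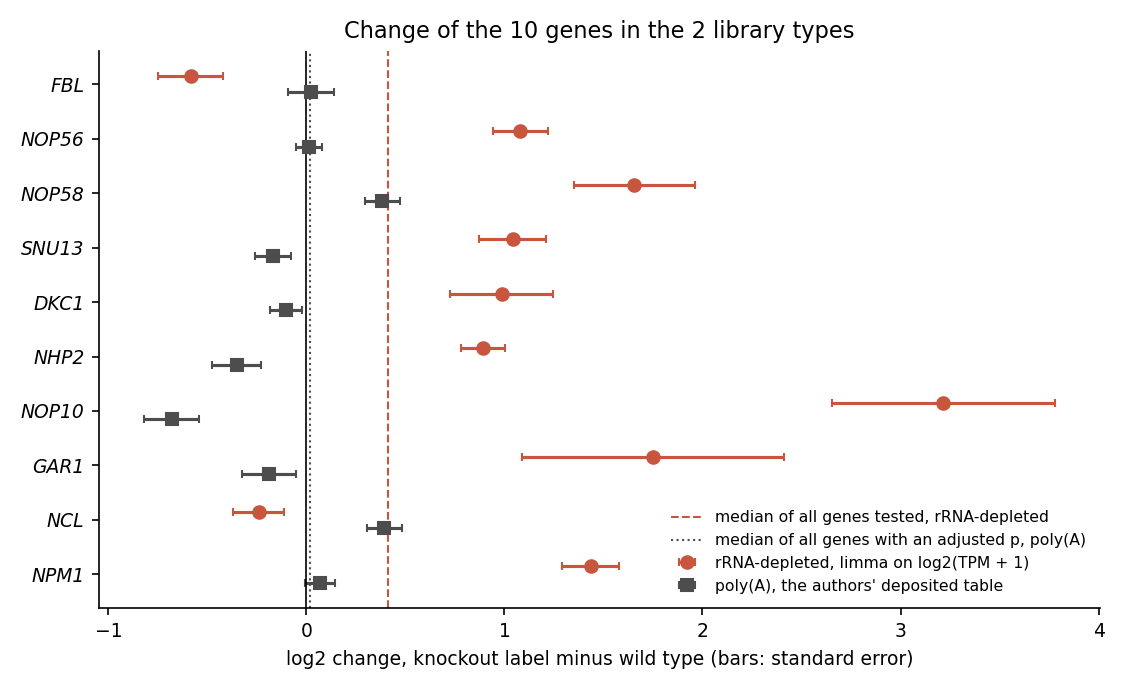
Log2 change of the 10 genes, knockout label minus wild type (horizontal axis), in the rRNA-depleted libraries (red circles, limma on log2(TPM + 1)) and in the authors' deposited poly(A) table (grey squares), with standard errors as bars and the median of all genes as vertical lines. NOP10 lies at 3.22 in one and at -0.68 in the other, and NOP58 lies above 0 in both.

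The rRNA-depleted changes ran with GC content over all genes, from a median log2 change of 1.19 in genes under 40% GC to -0.33 in genes over 60%, so each gene was set beside genes within 2 percentage points of its own GC content. NPM1 (43.3% GC, change 1.43) and NOP58 (41.3%, 1.66) had the lowest GC content, and the genes near them had median changes of 0.87 and 0.95. FBL (54.3%, -0.59) stood beside a median of 0.05 and NCL (47.2%, -0.24) beside 0.64, so both lay below genes of like GC content. NHP2 had the highest GC content of the 10 (57.1%) and a change of 0.89, beside a median of 0.00 for genes near it. NOP10 (48.0%, 3.22) stood beside 0.58. DKC1 (48.4%, 0.99) stood beside 0.55, the smallest distance of the 8 genes that lay above their neighbours. Relative to these neighbours 8 of the 10 genes were higher and 2 lower, the same split as relative to all genes. Once the trend with GC content was taken out of each library, 5 genes stayed called higher (NOP56, SNU13, NHP2, NOP10 and NPM1) and NCL was called lower.

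**Figure D4:**
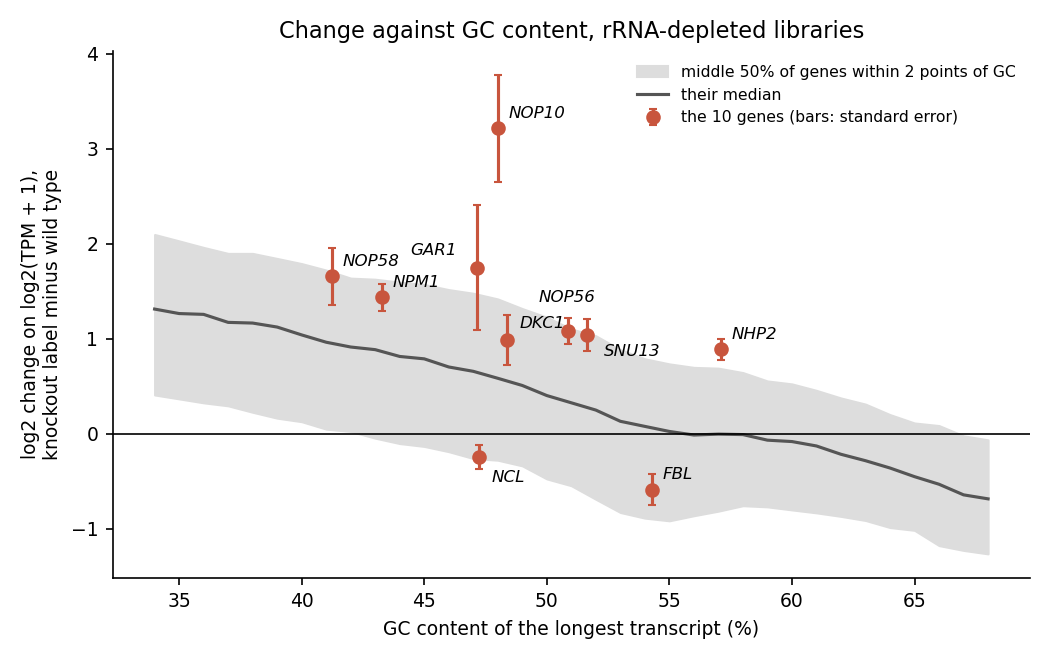
Log2 change (vertical axis) against GC content of the longest transcript (horizontal axis, %) for the 10 genes (red, bars are standard errors), over the median (line) and the interquartile range of all tested genes within 2 points of GC content (grey). NHP2, NOP10 and GAR1 lie above the grey band, and NCL and FBL lie below the line.

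Other genes of the pathway were taken from 8 lists, 114 genes in all. They hold assembly factors of snoRNPs, nucleolar phosphoproteins, RNA polymerase I and the proteins that build the ribosomal subunits. Enzymes that modify bases of ribosomal RNA and the MYC family are also among them. Of the 111 tested, 27 rose (24.3%) and 21 fell (18.9%), where 22.9% and 12.4% of all genes did, and their median log2 change was 0.40 against 0.41 for all genes. Unlike the 10 genes, 8 of which lay above the median of all genes, 55 of the 111 did. The split depended on the scaling: 16 rose and 29 fell with median ratio scaling, and 10 rose and 26 fell with the GC trend removed. Over all genes, median ratio scaling gave 2364 higher and 2499 lower of 14789. Removing the GC trend gave 1913 higher and 2031 lower of 14669. Without knockout-labelled library 3, 3 rose and 10 fell. The authors' deposited table called 9 of 111 higher and 16 lower.

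Of the 8 factors that assemble box C/D particles, 2 rose (25%) and 1 fell (12.5%), near the shares of all genes tested (22.9% and 12.4%). These 3 belong to the R2TP chaperone complex, as does RUVBL1, which did not pass (log2 change 0.72, limma adjusted p 0.0782). RPAP3 had 1.32, 3.85 and 3.34 TPM in the wild type and 37.4, 37.7 and 34.8 TPM in the knockout label (log2 change 3.35, limma adjusted p 0.00606). Its reads over the 6 libraries came to 169, few of them in the wild type. RUVBL2 rose by 1.16 (limma adjusted p 0.00525), and PIH1D1 fell by 1.75 on the log2 scale (limma adjusted p 0.00341), with mean TPM of 133.5 ± 21.4 (SD, n = 3) in the wild type and 38.9 ± 5.70 (SD, n = 2) in the knockout label. The authors' deposited table likewise gave a higher level for RUVBL2 (0.32). RPAP3 (0.25) and PIH1D1 (-0.09) did not pass in the authors' deposited table. Of the 5 H/ACA and Cajal body factors COIL, the scaffold of Cajal bodies, rose (from a mean of 13.9 to 42.4 TPM) and WRAP53, which brings telomerase RNA there, fell (-0.94, and -0.31 in the authors' deposited table). NOLC1, a chaperone of snoRNPs that runs between nucleolus and Cajal body, rose by 1.33, and the nucleolar GTPase GNL3 rose by 0.90, among 6 tested genes of their list. NOLC1 was higher in the authors' deposited table as well (0.21). COIL (0.12) and GNL3 (0.10) did not pass in the authors' deposited table.

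RNA polymerase I and its factors had 3 higher (21.4%) and 3 lower (21.4%) of 14, where 22.9% and 12.4% of all genes tested were. RRN3, the factor that makes the polymerase able to start, rose by 2.91 on the log2 scale, with mean TPM of 8.39 ± 2.83 (SD, n = 3) and 67.2 ± 0.471 (SD, n = 2) (limma adjusted p 0.00418). UBTF, which binds ribosomal DNA and recruits the polymerase, fell by 1.63 on the log2 scale, with mean TPM of 202 ± 17.6 and 64.7 ± 6.45 (limma adjusted p 0.00188). POLR1B rose by 1.24 and POLR1E fell by 0.87. RRN3 has near-identical copies, so its reads may be split. In the small subunit processome 10 of 32 tested genes rose (31.25%) and 6 fell (18.75%), beside the same shares of all genes. WDR36 (2.07) and DCAF13 (2.05) rose most, and RRP7A (-1.78) and UTP3 (-1.39) fell most. WDR36 was higher (0.39) and RRP7A (-0.58) and UTP3 (-0.57) were lower in the authors' deposited table too.

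In large subunit assembly 7 of 35 rose (20%) and 8 fell (22.9%), where 22.9% and 12.4% of all genes tested did. RSL24D1 (3.91), listed at 0 in wild-type library 2, and NSA2 (3.31) rose most, and NLE1 (-1.35) and NOP16 (-1.23) fell most. The value of RSL24D1 moved with the pseudocount and with that library: it was 5.09 with a pseudocount of 0.1, where the call was lost (limma adjusted p 0.154), 2.91 with a pseudocount of 5, and 2.77 without wild-type library 2, both past the threshold. Wild-type means were 6.45 TPM for RSL24D1 and 4.87 TPM for NSA2. Their reads over the 6 libraries came to 209 and 229, few of them in the wild type. NSA2 was lower in the authors' deposited table (-0.27), and so was NOP16 (-0.48). RSL24D1 (0.01) and NLE1 (0.10) did not pass in the authors' deposited table. Of 9 enzymes that modify bases of ribosomal RNA, NAT10, which acetylates cytidine, rose by 0.45, or 0.04 relative to the median gene. NSUN5, which methylates cytosine, fell by 2.99. TRMT112, the partner that stabilises the ribosomal m6A enzyme METTL5, fell by 0.69. NSUN5 (-0.89) and TRMT112 (-0.74) were lower in the authors' deposited table as well. NAT10 had a value below 0 in the authors' deposited table (-0.17) that did not pass. NSUN5 has near-identical copies in the genome. MYC, a transcription factor known to drive many nucleolar genes, had 73.2, 103.5 and 85.8 TPM in the wild type and 179.8, 174 and 187 TPM in the knockout label (log2 change 1.06; limma adjusted p 0.00911), and a value of -0.11 in the authors' deposited table that did not pass. Of these 23 named genes, 17 missed the threshold without knockout-labelled library 3, and RSL24D1, COIL, GNL3 and NAT10 also missed it without wild-type library 1 or 3, as did TRMT112 without wild-type library 1 (limma adjusted p 0.0537). NAT10 missed it in 13 of the 17 alternatives. Removing the GC trend cost 8 of the 23 their call (COIL, GNL3, POLR1B, DCAF13, RSL24D1, NSA2, NAT10 and TRMT112), and median ratio scaling cost 5.

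**Figure D5:**
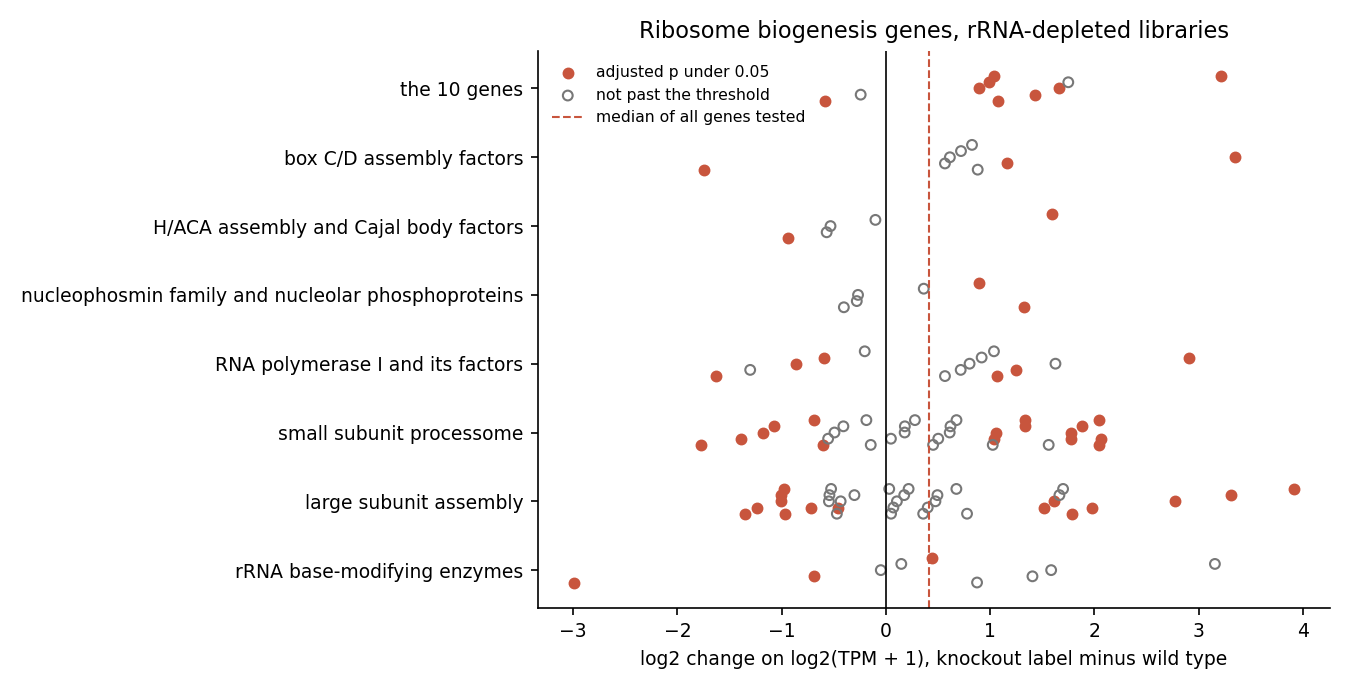
Log2 change on log2(TPM + 1), knockout label minus wild type (horizontal axis), of the 10 genes and of 7 pathway lists (rows), with genes past the limma adjusted p threshold filled and the median of all genes as a dashed line. The 10 genes lie mostly to the right of the line, and the lists lie on both sides of it. The list of the MYC family is not drawn.

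Members whose promoter was at hand were searched for CACGTG, the E-box bound by MYC and related factors, a palindrome that reads the same on both strands. RefSeq windows of 250 bases before to 50 after a start site (GRCh38.p14) matched 8 of the 10 genes, without NOP58 and SNU13, in 10 windows. The letters were present in 3 of these 8 genes, NOP10, FBL and GAR1, and in 7.26% of all 35116 windows. The latter share is per window and not per gene. NOP10, the gene with the largest rise, holds 2 matches, which start 170 and 11 bases before the RefSeq start site. The nearer match lies inside the GENCODE span of NOP10, whose 5′ end is at position 34343177. The 250 bases before the RefSeq start site (chr15:34343137-34343386, minus strand) are printed with both matches in capitals. FBL, which fell, holds a match after its start site. Of the windows of GAR1 the one further downstream holds a match, after its start site, and the other holds none. A match is a description of these letters and no evidence of binding.
NOP10 promoter: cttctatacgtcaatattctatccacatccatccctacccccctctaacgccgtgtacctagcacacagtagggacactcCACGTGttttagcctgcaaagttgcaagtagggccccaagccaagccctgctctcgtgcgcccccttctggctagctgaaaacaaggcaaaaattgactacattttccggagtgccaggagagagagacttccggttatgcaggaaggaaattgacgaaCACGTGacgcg

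Small nucleolar RNA genes inside the 10 genes gave almost no reads. There are 14 on the same strand: 5 in NOP56, 4 in NOP58, 3 in NCL and 2 in DKC1. By their letters (TGATG in the first 25 bases with CTGA in the last 20, or ACA in the last 8) 10 were of the C/D class and 4 of the H/ACA class. All 4 in NOP58 were C/D and both in DKC1 were H/ACA, the class of the host's own protein, while NOP56 held 4 C/D RNAs beside SNORA51 and NCL held SNORD20 and SNORD82 beside SNORA75. Of the 14, 8 were listed at 0 in all 6 libraries, SNORD57 and SNORA56 among them, and the other 6 had at most 1 read in a library, 7 reads in all. The upper limit of a count of 0, 3 reads, equals for such short RNAs 59.98 to 444 TPM depending on the RNA and the library. None passed the filter for testing, so a difference between the labels was not detectable in these libraries. Why the reads of these RNAs were so few was not tested.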

How the data were processed

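The rRNA-depleted values are TPM, per library, as the authors deposited them. For the poly(A) samples only a comparison of genotypes was used. Its columns, per the file headers, are the mean normalized count (a signal), the log2 fold change, its SE, the test score and the p-value, raw and adjusted. These were described and not retested. Per the submitters' processing notes Trimmomatic, STAR, DESeq2 and hg38 were used. The gene annotation, model and strand setting are not given in the sources used here. Titles gave each sample's genotype and library type.

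Gene lengths (union of exons), positions and GC content were taken from GENCODE 29 (GRCh38), where 93.8% of gene identifiers were found. Of TPM values above 0, 90.9% were whole reads to within 0.02 reads. FBL and SNU13 were not, so no reads are printed for them. The limma step (limma 3.58.1, R 4.3.3; lmFit, eBayes with trend, log2(TPM + 1), at least 1 TPM in at least 3 libraries) compared 3 wild-type samples with 2 knockout-labelled samples and understates changes of low genes. Libraries of a label were compared by chi-square over genes with at least 10 whole reads in the pair. Reads were simulated at this depth with a dispersion of 0.01 and a log2 change of 2 given to 200 of 13686 genes. There limma called 36, all in the right direction, and 2 others, and 0 when none was changed. Of 94 changed genes with at least 20 mean reads, 35 were called. A miss of the threshold is thus no sign of equal levels. Far fewer genes were changed than the 35.3% that passed in the data, so these shares do not measure the power of the real test. Other steps used Python 3.11.15, numpy 2.4.6, pandas 2.3.3, scipy 1.17.1 and matplotlib 3.10.9.

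The 10 genes and the pathway lists were chosen with earlier results of these data known. Genes named from a list are the 2 with the largest rise and the 2 with the largest fall past the threshold, with at least 5 TPM on average and groups that do not overlap, with METTL3, MYC and the markers. Alternatives changed the pseudocount, filter, scaling, GC trend, threshold, merging, block and libraries, and used voom on reads.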

Additional observations from a re-analysis of the deposited data

How the results depend on the processing

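All 10 genes kept the sign of their change in all 17 alternatives to the rRNA-depleted test. The count of the 10 that passed, 8 as reported, was 4 at an adjusted p under 0.01 and ranged from 2 to 8 when 1 library was left out, the 2 being without knockout-labelled library 3. It was 6 to 10 in the other alternatives. Without knockout-labelled library 3, which leaves 1 sample with that label, calls were fewer over all genes tested as well. Pathway genes that rose, 27 as reported, numbered 16 with median ratio scaling, 10 with the GC trend removed, 10 at an adjusted p under 0.01, and 3 to 27 with 1 library left out. Those that fell, 21 as reported, numbered 35 under voom, 10 at an adjusted p under 0.01, and 10 to 21 with 1 library left out. Of the 4 genes called in the authors' deposited table, 3 remained at an adjusted p under 0.01 and 0 when a log2 fold change of 1 or more in size was also required. METTL3 changed sign with the GC trend removed (-0.31). Libraries of the same number did not deviate together (correlations across genes of 0.02, -0.02 and 0.01), which gave no sign of pairing. Counting noise at this depth could hide a pairing, so the check cannot exclude it. With the 6 libraries as separate samples and the replicate number as a block 9 of the 10 genes passed, GAR1 added, with 32 pathway genes higher and 22 lower. Few reads limit NOP10, GAR1, the small nucleolar RNAs and pathway genes that are low in the wild type, such as RPAP3, NSA2 and RSL24D1. None of the intervals covers more than counting error, since no molecular identifiers are stated.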
